A study of Mus musculus with 221 samples.

Results

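Metallothioneins and peroxide-removing enzymes were described through 9 genes, Mt1, Mt2, Mt3, Gpx1, Gpx4, Gpx8, Prdx1, Prdx4 and Prdx6, out of 23244 features measured in 221 single cells of embryonic mouse neocortex. The genes were selected on their levels in glial and neuronal cells of these same data. Their glia-neuron differences are therefore given as a description, with no test. All 9 were measured in enough cells to enter the fits.

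The cells came from the medial neocortex, the part of the cortex next to the midline, of C57BL/6J embryos at E18.5, and no group was treated or carried an engineered allele. Tissue of 8 neocortices was pooled before dissociation in each of 2 independent pools, the second of which gave 99 cells, so the pool is the replicate and the animal behind a cell is not known. The labels give the sex as female, whereas Y-linked transcripts were found in 99 cells. Cells were captured on a Fluidigm C1 chip, a microfluidic device that isolates single cells, and full-length cDNA was made with the SMARTer v4 Ultra Low kit.

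Metallothioneins are small cysteine-rich proteins that bind zinc and copper, and their genes respond to metal through the transcription factor Mtf1. Glutathione peroxidases and peroxiredoxins reduce hydrogen peroxide or lipid peroxides with electrons from glutathione or thioredoxin. Radial glia, the stem cells of the embryonic cortex, are the forerunners of astrocytes, which are known for high metallothionein and glutathione metabolism in the adult brain.

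The 3 metallothionein genes lie side by side on the plus strand of chromosome 8 (GRCm38, the assembly mm10, with GENCODE M21 genes). Mt3 spans 94152607 to 94154146, Mt2 spans 94172664 to 94173568 and Mt1 spans 94179082 to 94180327. Between Mt3 and Mt2 lie 18517 bases, and between Mt2 and Mt1 lie 5513. The other genes are dispersed. Gpx1 lies on chromosome 9 (108338903 to 108340343), Gpx4 on chromosome 10 (80047166 to 80056439) and Gpx8 on chromosome 13 (113042753 to 113046410). Prdx1 lies on chromosome 4 (116685544 to 116700822), Prdx4 on chromosome X (155323918 to 155340754) and Prdx6 on chromosome 1 (161240112 to 161251219). Mt2 overlaps the antisense gene Gm45774, and Gpx8 overlaps Cdc20b on the other strand. The sources used here do not say whether reads were counted by strand, so reads of these partners cannot be told apart, nor can reads that fit Mt1 and Mt2 or other close copies of the genes equally.

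The metallothionein promoters are shown because these genes are neighbours and their levels were compared across cells, as described below. Some pairs of genes on different chromosomes had higher correlations than the metallothioneins, and a link between promoters and correlation was not tested. Each sequence runs from 250 bases before the RefSeq transcription start to 30 bases after it (GRCm38.p6, plus strand). Capitals mark the metal response element core, searched as TGCACNC or TGCGCNC on both strands.
Mt1, chr8:94178839-94179118: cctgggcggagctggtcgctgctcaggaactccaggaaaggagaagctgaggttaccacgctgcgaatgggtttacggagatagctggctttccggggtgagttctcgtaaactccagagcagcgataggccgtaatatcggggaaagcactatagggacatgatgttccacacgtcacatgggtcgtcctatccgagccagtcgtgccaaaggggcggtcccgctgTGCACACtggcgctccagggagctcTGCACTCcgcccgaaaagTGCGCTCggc
Mt2, chr8:94172368-94172647: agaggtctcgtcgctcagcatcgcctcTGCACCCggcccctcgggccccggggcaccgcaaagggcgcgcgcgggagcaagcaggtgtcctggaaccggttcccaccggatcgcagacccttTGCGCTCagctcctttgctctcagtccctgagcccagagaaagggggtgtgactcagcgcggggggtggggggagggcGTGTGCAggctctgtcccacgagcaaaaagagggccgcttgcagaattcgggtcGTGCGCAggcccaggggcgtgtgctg
Mt3, chr8:94152357-94152636: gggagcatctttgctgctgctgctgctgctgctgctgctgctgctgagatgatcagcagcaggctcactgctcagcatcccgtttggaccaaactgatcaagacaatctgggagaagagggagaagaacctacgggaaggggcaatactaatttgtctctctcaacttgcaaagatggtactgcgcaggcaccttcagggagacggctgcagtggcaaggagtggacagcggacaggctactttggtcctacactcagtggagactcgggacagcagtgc
In the full RefSeq windows, which end 50 bases after the start, Mt1 held 3 cores, Mt2 held 4 and Mt3 held 1. The Mt3 core began 27 bases after the start, so it runs past the stretch printed above and is therefore not in capitals. Of 32851 promoter windows of this length, 25.7% held at least 1 core (12.6% TGCACNC and 15.4% TGCGCNC), 1.97% held 3 or more and 0.517% held 4 or more. RefSeq windows were matched for 8 of the 9 genes (11 windows), all but Prdx6. Among the other windows the Prdx4 window held 1 core, and the windows of Prdx1, Gpx1, Gpx4 and Gpx8 held 0. The antioxidant element core TGACNNNGC, which overlapped no metal core, was present once in the Mt2 window and once in the Prdx1 window, and in 12.4% of all windows. These matches describe letters in a window, not occupied sites.

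Values are deposited as TPM, an estimate of transcript abundance scaled for gene length and to the same total in every cell, so levels may be set side by side between genes. No value is 0. Features without signal share the lowest value of their cell, called the floor here, which lay between 1.33 and 2.998 TPM. A gene is called detected in a cell where its value was above that floor. Each cell had 2146 to 6727 genes above its floor. Read depth is unknown. Cells were sorted by how many marker genes were detected. A radial glia gate took cells with at least 5 of 8 radial glia markers (Slc1a3, Fabp7, Hes5, Sox9, Sox2, Pax6, Mfge8 and Vim) and no Eomes, the gene that marks the progenitors between radial glia and neurons. It held 31 cells (13 in pool 1 and 18 in pool 2). Excitatory neuron-like cells (at least 3 of 8 neuronal markers such as Neurod6 and Tbr1, and at most 2 radial glia markers) numbered 77 (51 and 26), interneuron-like cells 24 (15 and 9, from Gad and Dlx genes) and Eomes-positive cells 34 (18 and 16). The remaining 55 cells were left unnamed.

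The radial glia gate is a range and not a cell type. Its 16 cells with 7 or 8 markers had a median Fabp7 of 28945 TPM and a median Neurod6 of 175 TPM. In its 15 cells with 5 or 6 markers these medians were 492 and 1922 TPM, and in the excitatory neuron-like cells 276 and 1819 TPM. By these markers the cells with 5 or 6 markers were close to neurons, and only the 16 cells with 7 or 8 markers (9 in pool 1 and 7 in pool 2) are called radial glia-like below. This division was made after the data were seen. The median number of detected genes was 4767 in radial glia-like cells and 3919 in excitatory neuron-like cells. Of the 31 gated cells, 26 carried the suffix A in their well name, against 32 of 77 excitatory neuron-like cells, and the labels do not say what the suffix marks.

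The medians of the 3 metallothioneins were near the floor in excitatory neuron-like cells, and in radial glia-like cells those of Mt3 and Mt1 were above the medians of the other 7 genes. Mt3, the metallothionein that is typical of brain, was detected in 15 of 16 radial glia-like cells, with a lowest value of 2.05 TPM, a median of 1658 and a highest of 6262. Among excitatory neuron-like cells 31 of 77 had detectable Mt3, and the lowest, median and highest values were 1.48, 2.03 and 283 TPM. The groups overlapped, although the lowest value was 609 TPM in the 9 radial glia-like cells with all 8 markers. Of all 14 cells with 8 markers, whatever their class, 12 had Mt3 detected, and the lowest value was 1.57 TPM. Mt1, which is expressed in many tissues and rises with metal and glucocorticoid, showed a like division. It was detected in 13 of 16 radial glia-like cells (lowest 1.75, median 1071, highest 6126 TPM). The excitatory neuron-like cells had it detected in 34 of 77 (1.497, 2.04 and 440.5 TPM). Here too the groups overlapped, since 3 radial glia-like cells were at the floor and 12 neurons reached 100 TPM. Mt2, the partner of Mt1, was the least often found. It was detected in 9 of 16 radial glia-like cells (1.40, 121.96 and 1816 TPM) and in 9 of 77 excitatory neuron-like cells (1.497, 1.88 and 358 TPM).

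The glutathione peroxidases fell into 2 kinds. Gpx1, the selenoenzyme that removes hydrogen peroxide in the cytosol and mitochondria, was detected in 16 of 16 radial glia-like cells (149, 389 and 814 TPM). Among excitatory neuron-like cells 73 of 77 had it, with values of 1.61, 355 and 1007 TPM. Gpx4, the selenoenzyme that reduces lipid peroxides in membranes and protects from ferroptosis, was detected in 16 of 16 (78.8, 182 and 338 TPM) and in 76 of 77 (1.96, 221 and 482 TPM). For both genes the values of radial glia-like cells lay inside those of the neurons. Gpx8, a membrane protein of the endoplasmic reticulum with cysteine in place of selenocysteine, was different. It was detected in 12 of 16 radial glia-like cells (1.74, 247 and 646 TPM) but in only 7 of 77 excitatory neuron-like cells (1.33, 1.87 and 181 TPM), of which 1 reached 100 TPM.

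The peroxiredoxins were found in many neurons and were more abundant in radial glia-like cells. Prdx1, a cytosolic enzyme that uses thioredoxin, was detected in 16 of 16 radial glia-like cells (30.3, 329 and 749 TPM) and in 65 of 77 excitatory neuron-like cells (1.48, 94.1 and 485 TPM). Prdx6, which uses glutathione and also acts on phospholipids, was detected in 15 of 16 (2.05, 532 and 1397 TPM) and in 56 of 77 (1.33, 127 and 835 TPM). For both, the groups overlapped widely and differed mainly in their medians. Prdx4, the peroxiredoxin of the endoplasmic reticulum, had a median near the floor in neurons. It was detected in 13 of 16 radial glia-like cells (1.75, 373 and 1009 TPM) and in 34 of 77 excitatory neuron-like cells (1.33, 2.08 and 645 TPM).

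**Figure D1:**
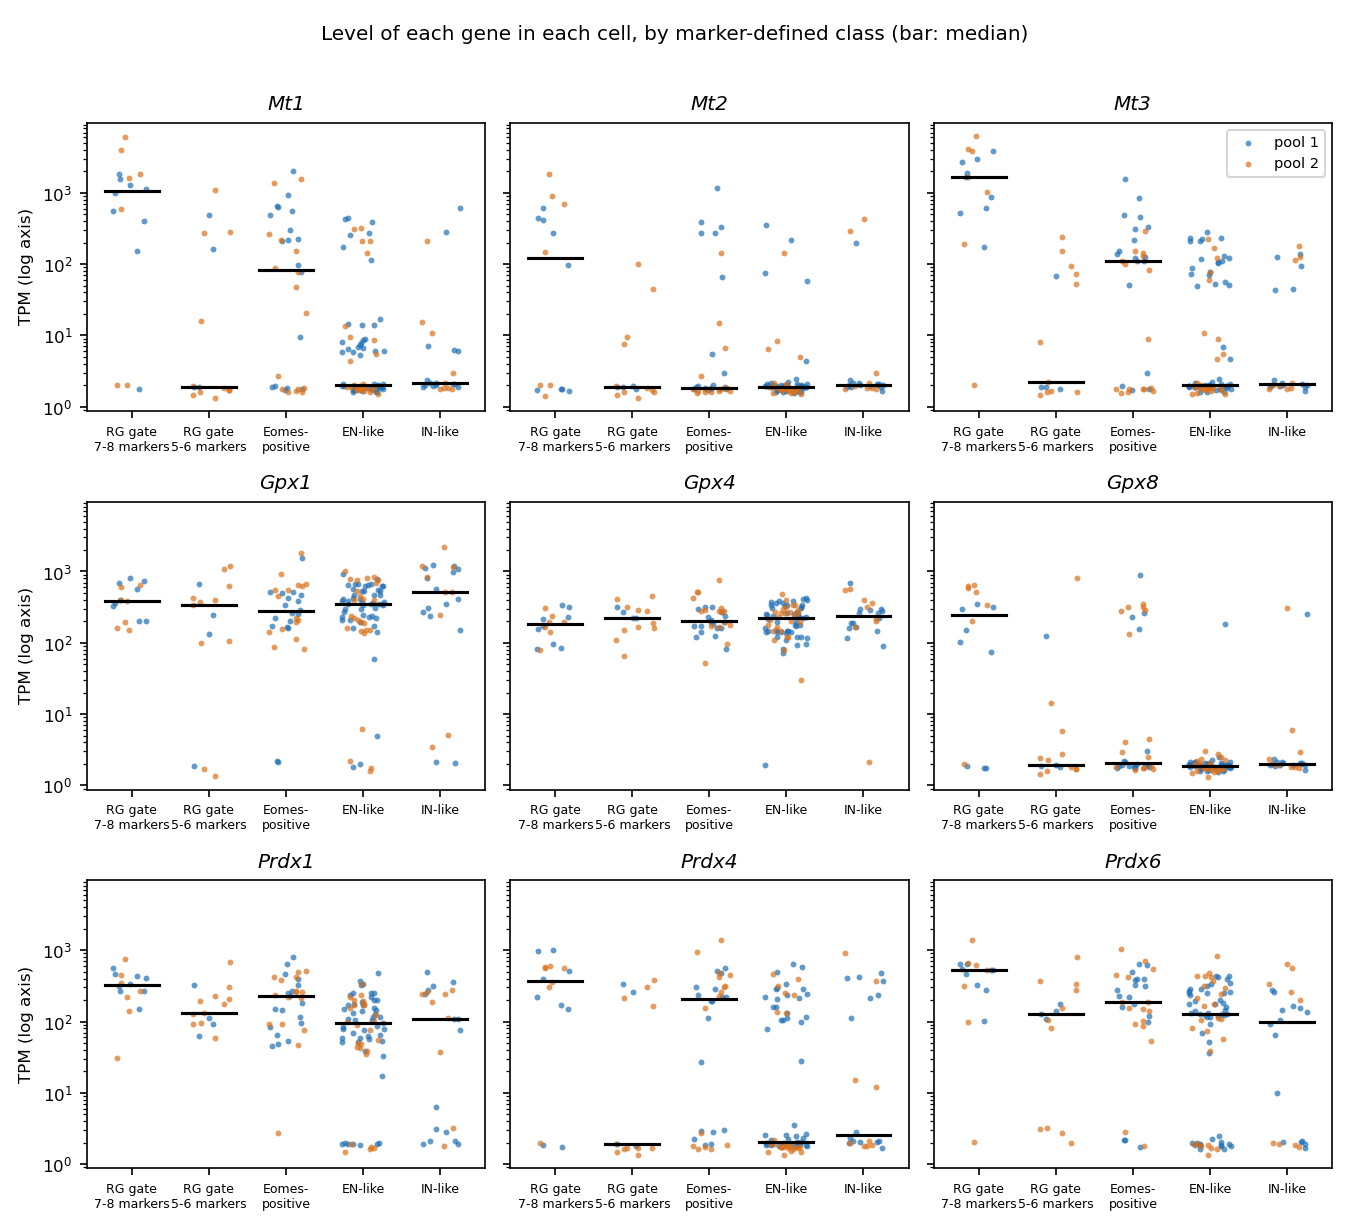
TPM of each of the 9 genes (log axis) in each cell of the radial glia gate (7 to 8 or 5 to 6 markers), of the Eomes-positive class and of the excitatory (EN-like) and inhibitory (IN-like) neuron classes; each point is a cell, blue for pool 1 and orange for pool 2, and bars are medians. Gpx1 and Gpx4 have like medians in every class, whereas the median of Mt3 is 1658 TPM in cells with 7 or 8 markers and 2.03 TPM in EN-like cells.

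Over all 221 cells, the members' medians moved with the number of radial glia markers in different ways. The Mt3 median was 2.62 TPM at 3 markers, 24.03 at 4, 53.2 at 5, 67.1 at 6, 173 at 7 and 1356 at 8. The Mt1 median was 1.86 TPM at 5 markers, 283 at 6, 217 at 7 and 1071 at 8, and the Mt2 median left the floor only at 8 markers, where it was 272 TPM. Mt3 was thus above the floor in cells with fewer markers than Mt1 or Mt2 by this measure. The Gpx8 median was 2.14 TPM at 6 markers, 103.5 at 7 and 285 at 8, and the Prdx4 median was 1.89, 307 and 491 TPM at the same numbers. The Gpx1 median stayed between 219 and 517 TPM from 1 to 8 markers, and that of Gpx4 between 191 and 274 TPM. The groups with 5, 6, 7 and 8 markers held 13, 7, 17 and 14 cells, few enough for 1 cell to move a median.

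**Figure D2:**
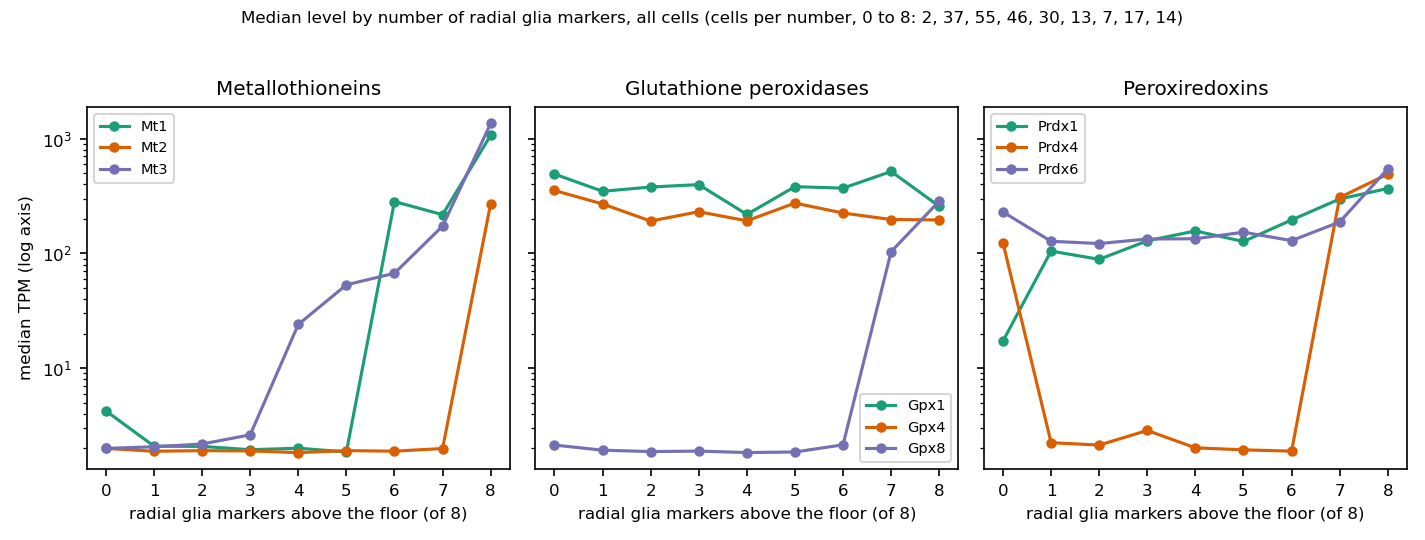
Median TPM (log axis) of the 9 genes over all 221 cells against the number of radial glia markers above the floor. The Mt3 median climbs from 24.03 TPM at 4 markers to 1356 TPM at 8, while Gpx1 and Gpx4 stay between 191 and 517 TPM from 1 to 8 markers; only 2 cells have 0 markers.

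At the edge of the gate, 18 cells with 4 markers that were neither interneuron-like nor Eomes-positive lay just outside it, and 10 cells with 5 markers lay just inside. The Mt1 median was 2.01 TPM outside and 1.86 inside. For Mt3 these medians were 24.03 and 5.13 TPM, and for Gpx8 1.81 and 2.03 TPM. These medians were low on both sides of the edge, and the highest values came from cells deeper in the gate.

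Differences between classes were taken between mean log2(TPM + 1) values, a scale that understates the change of low genes. For the whole radial glia gate against excitatory neuron-like cells, the mean log2 difference (limma estimate ± SE, n = 2 pools per class) was 3.81 ± 0.80 for Mt3, 3.50 ± 0.72 for Mt1, 2.08 ± 0.59 for Mt2 and 3.08 ± 0.52 for Gpx8. It was 2.17 ± 0.63 for Prdx4, 1.85 ± 0.52 for Prdx1 and 1.45 ± 0.58 for Prdx6. For the radial glia-like cells alone it was larger, 6.65 ± 0.79 for Mt3, 5.53 ± 0.63 for Mt1, 5.06 ± 0.72 for Gpx8, 3.74 ± 0.62 for Prdx4, 3.69 ± 0.65 for Mt2, 2.33 ± 0.51 for Prdx6 and 2.21 ± 0.52 for Prdx1. These 7 genes were higher in both pools under either gate. For Gpx1 the difference was 0.07 ± 0.43 with the whole gate and 0.73 ± 0.44 with the radial glia-like cells, and for Gpx4 -0.03 ± 0.41 and -0.19 ± 0.43. The sign of both genes changed with the settings (from -0.38 to 0.73 for Gpx1 and from -0.32 to 0.09 for Gpx4), so no direction is given for them.

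The size of some differences varied between the pools. With the whole gate, the Mt1 difference was 4.54 in pool 1 and 2.46 in pool 2, and that of Prdx6 was 2.32 and 0.58. Pool 2 gave 11 of the 15 cells with 5 or 6 markers. For the radial glia-like cells the Mt1 differences were 5.73 and 5.32, and those of Prdx6 were 2.79 and 1.88. The pools were further apart for Gpx8, at 3.87 and 6.26, and for Prdx4, at 2.82 and 4.66.

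**Figure D3:**
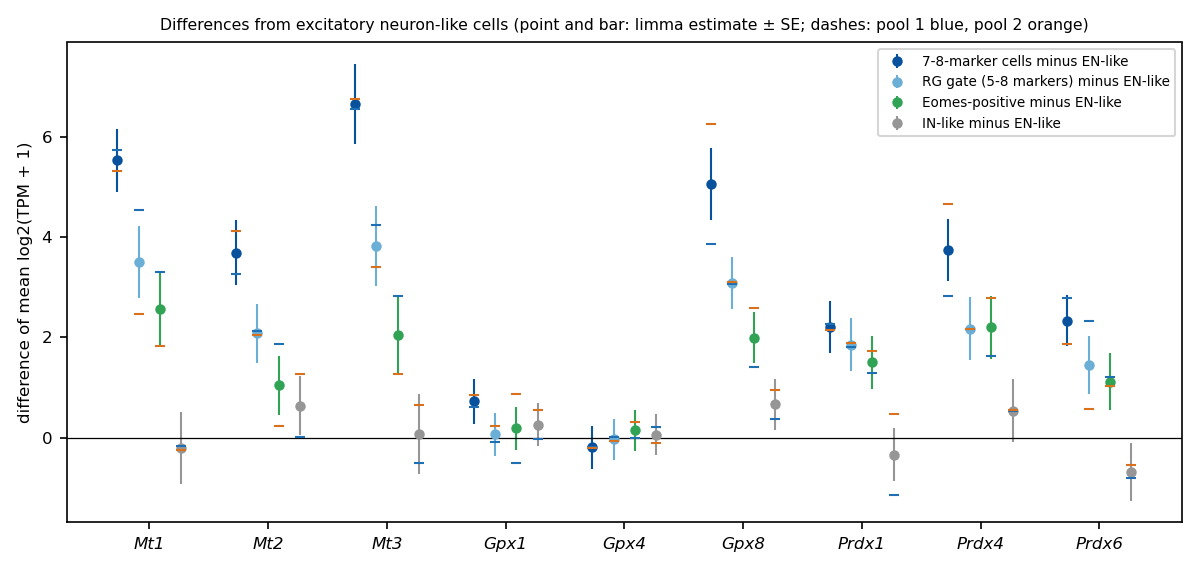
Difference of mean log2(TPM + 1) from excitatory neuron-like (EN-like) cells for the 9 genes; points with bars are limma estimates ± SE and the blue and orange dashes the values of pools 1 and 2. Mt3 reaches 6.65 in cells with 7 or 8 radial glia markers, and the interneuron-like (IN-like) values lie between -0.68 and 0.66.

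No gene of the set passed the test between the neuron classes. Between interneuron-like and excitatory neuron-like cells, 0 of the 9 genes passed (limma, adjusted p of 0.795 or more; 0 with an unadjusted p under 0.05), where 0.886% of all 10724 genes tested were called. Neuron levels entered the selection of the genes, and some genes were near the floor in most neurons, which limits any difference here. The absence of calls is therefore not independent of the selection, and no conclusion is drawn from it. The differences ran from -0.68 ± 0.58 for Prdx6 to 0.66 ± 0.52 for Gpx8. Gpx1 had its highest median here, 516 TPM in interneuron-like cells against 355 TPM, with a difference of 0.26 ± 0.43 (adjusted p = 0.931 by limma) that was positive in 1 of 2 pools.

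Eomes-positive cells held mean levels between those of the gate and of the neurons for 6 of the 9 genes. Among them 0 of 9 genes passed the test against excitatory neuron-like cells (limma; 5 with an unadjusted p under 0.05), where 0.0186% of all genes were called, 2 in number. The reference here is the neurons, whose levels entered the selection of the genes, and some Eomes-positive cells carried most radial glia markers. The p values and signs in this comparison are therefore not independent of the selection, and no conclusion is drawn from them. All 9 differences were positive, the largest being 2.56 ± 0.72 for Mt1 (adjusted p = 0.269), 2.204 ± 0.63 for Prdx4 (0.282), 2.05 ± 0.80 for Mt3 (0.434) and 1.995 ± 0.52 for Gpx8 (0.217). The median over all genes was 0.13 here and -0.01 after quantile normalization, under which the Gpx4 difference turned to -0.0783. With profiles weighted by cell number, Mt1 (adjusted p = 0.0392) and Gpx8 (0.0407) passed, and Gpx8 also passed on the log2 of the mean TPM (0.0451). Over all 20 settings limma's adjusted p reached 0.9998 for both genes, and they passed in 1 and 2 settings. The class was mixed. Its 13 cells with 7 or 8 radial glia markers had Gpx8 detected in 11 (median 259 TPM) and Prdx4 in 13 (422 TPM), whereas its 18 cells with under 5 markers had them in 2 (1.84 TPM) and 11 (2.92 TPM). Without the Eomes-positive cells that had 5 or more radial glia markers, the Gpx8 difference was 0.39, that of Prdx4 0.59 and that of Mt2 -0.32, and 0 of 9 genes had an unadjusted p under 0.05. One Eomes-positive cell held microglial transcripts (Tyrobp at 5397 TPM). In 1 setting it was dropped with all cells whose endothelial, mural, microglial, red blood cell and choroid plexus markers summed to 100 TPM or more. The Gpx8 difference was then 2.31. This setting also changed the neurons, leaving 45 and 17 excitatory neuron-like cells in pools 1 and 2, against 51 and 26.

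Ordered by the mean of both pools, the radial glia gate stood first for Mt1, Mt2, Mt3, Gpx8, Prdx1 and Prdx6. The Eomes-positive class stood second for these 6 genes. Their pool values overlapped for Mt1, Mt3 and Prdx6 and were apart for Mt2, Gpx8 and Prdx1. For Prdx4 the Eomes-positive class (5.89 on the log2 scale) and the gate (5.85) overlapped. For Gpx1 and Gpx4 every neighbouring pair of classes overlapped.

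The rest of the redox and metal pathways was compared between the gate and excitatory neuron-like cells through 8 lists, of which 95 genes were detected in some cell and 82 were tested. Txn2 was not analysed here. With the whole gate, 0 of 82 passed in either direction (limma, adjusted p under 0.05 and a log2 difference of at least 1; 7 with an unadjusted p under 0.05), where 0.28% of all genes were called higher and 0.0466% lower. With the pool as a block, 0 of all 10724 genes were called (1083 with an unadjusted p under 0.05), against 35 without it. With the radial glia-like cells, 5 of 82 were higher and 0 lower, where 4.13% of all genes were called higher and 1.02% lower, so the share is near that of all genes. The median difference of the lists lay between 0.11 and 0.51, against 0.03 for all genes.

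The 5 genes that passed, named after their values were seen, were 3 glutathione transferases and 2 metal genes. Gstm5 was higher by 3.37 ± 0.59 (adjusted p = 0.0071, limma), Gstm1 by 3.73 ± 0.67 (0.00803) and Mgst1, a transferase of membranes, by 1.73 ± 0.44 (0.0402). Ccs, the copper chaperone of superoxide dismutase, was higher by 2.84 ± 0.57 (0.0137) and Slc30a6, a zinc transporter of the Golgi, by 2.62 ± 0.53 (0.0137). Gstm5 was detected in 16 of 16 radial glia-like cells (median 701 TPM) and in 47 of 77 excitatory neuron-like cells (96.95 TPM). Gstm1 was detected in 12 and 17 of these cells, Slc30a6 in 11 and 16, and Ccs in 10 and 17. Mgst1 was detected in only 6 of 16 and 5 of 77, and its median in radial glia-like cells was near the floor (1.93 TPM). By list, 3 of 16 tested genes of glutathione synthesis and use and 2 of 17 other metallothionein, zinc and copper genes were called, and 0 in the other 6 lists. Mt4, the neighbour of Mt3, was at the floor in every cell.

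Prdx2 had higher medians than any of the 6 glutathione peroxidases and peroxiredoxins above. This cytosolic peroxiredoxin, known for high levels in neurons, was detected in 221 of 221 cells, with medians of 2423 TPM in radial glia-like and 3178 TPM in excitatory neuron-like cells and a difference of -0.35 ± 0.24 (adjusted p = 0.462, limma). The thioredoxin Txn1 had medians of 426 and 365 TPM (0.32 ± 0.43, adjusted p = 0.743). The iron storage subunits Fth1 (1897 and 1854 TPM) and Ftl1 (2149 and 3289 TPM) did not pass either, with adjusted p of 0.801 and 0.259 by limma. Prdx5, Glrx5, Atox1, Slc39a6, Mgst3, Hmox2, Sqstm1, Sephs2, Trnau1ap, Pdia3 and Pdia6, the other genes named for their level in each list, did not pass.

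Within the gate, the genes that were high in radial glia-like cells rose and fell together from cell to cell. Correlations are Pearson r of log2(TPM + 1) over cells, given as a description. The cells of a pool share their animals, and each cell's values share its library and depth. Over the 31 gated cells, Mt1 and Mt2 had r of 0.64, Mt1 and Mt3 0.66, and Mt2 and Mt3 0.63. The highest value, 0.75, joined Gpx8 and Prdx4, the pair of the endoplasmic reticulum, and was 0.79 in pool 1 (13 cells) and 0.74 in pool 2 (18 cells). Both were detected in 14 cells, and both were at the floor in 8. The 21 pairs without Gpx1 and Gpx4 were all positive (median 0.45, from 0.26 to 0.75), also within each pool. The 15 pairs with Gpx1 or Gpx4 had a median of -0.003 (-0.23 to 0.49). Over the 77 excitatory neuron-like cells, the same 21 pairs had a median of -0.02, but some of these genes were at the floor in most neurons, which limits r there. The median was 0.16 over Eomes-positive cells and 0.23 over all cells. The gate mixes cells close to neurons with radial glia-like cells, and the genes were selected on glia-neuron levels. The r within it are therefore not independent of the selection.

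Part of this pattern went along with position in the gate. Over the 31 cells Mt3 had r of 0.78 with the number of radial glia markers, -0.39 with Neurod6 and 0.48 with the number of genes above the floor. Among the 16 radial glia-like cells, which had 7 or 8 markers, the highest values were 0.88 for Gpx8 and Prdx4, 0.87 for Mt3 and Prdx6 and 0.77 for Mt1 and Mt3. The other metallothionein pairs had 0.61 (Mt1 and Mt2) and 0.51 (Mt2 and Mt3). The median number of detected genes was 4164 in the 7 cells with 7 markers and 5139 in the 9 with 8. Over all cells, the Mt3 median was 173 TPM at 7 markers and 1356 at 8. The part of marker number and of detected genes in these r was not tested. Mt3 and Prdx6 had low values with the pair of the endoplasmic reticulum, at 0.20 for Mt3 and Gpx8, 0.15 for Mt3 and Prdx4, -0.07 for Prdx6 and Gpx8 and -0.11 for Prdx6 and Prdx4. Mt1 had moderate to high values with genes on both sides, at 0.64 with Prdx6, 0.53 with Prdx4 and 0.48 with Gpx8. Prdx1 had 0.67 with Mt1, 0.61 with Prdx4 and 0.43 with Gpx8, but only 0.30 with Mt3 and 0.18 with Prdx6. Spearman's rho was 0.63 for Mt3 and Prdx6 and 0.82 for Gpx8 and Prdx4, and Mt3 and Prdx6 were both at the floor in 1 cell. Of Mt1, Mt2, Mt3, Gpx8 and Prdx4, all 5 were detected in 8 of 16 radial glia-like cells, in 0 of the 15 cells with 5 or 6 markers, in 5 of 34 Eomes-positive cells and in 0 of 77 excitatory neuron-like cells.

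**Figure D4:**
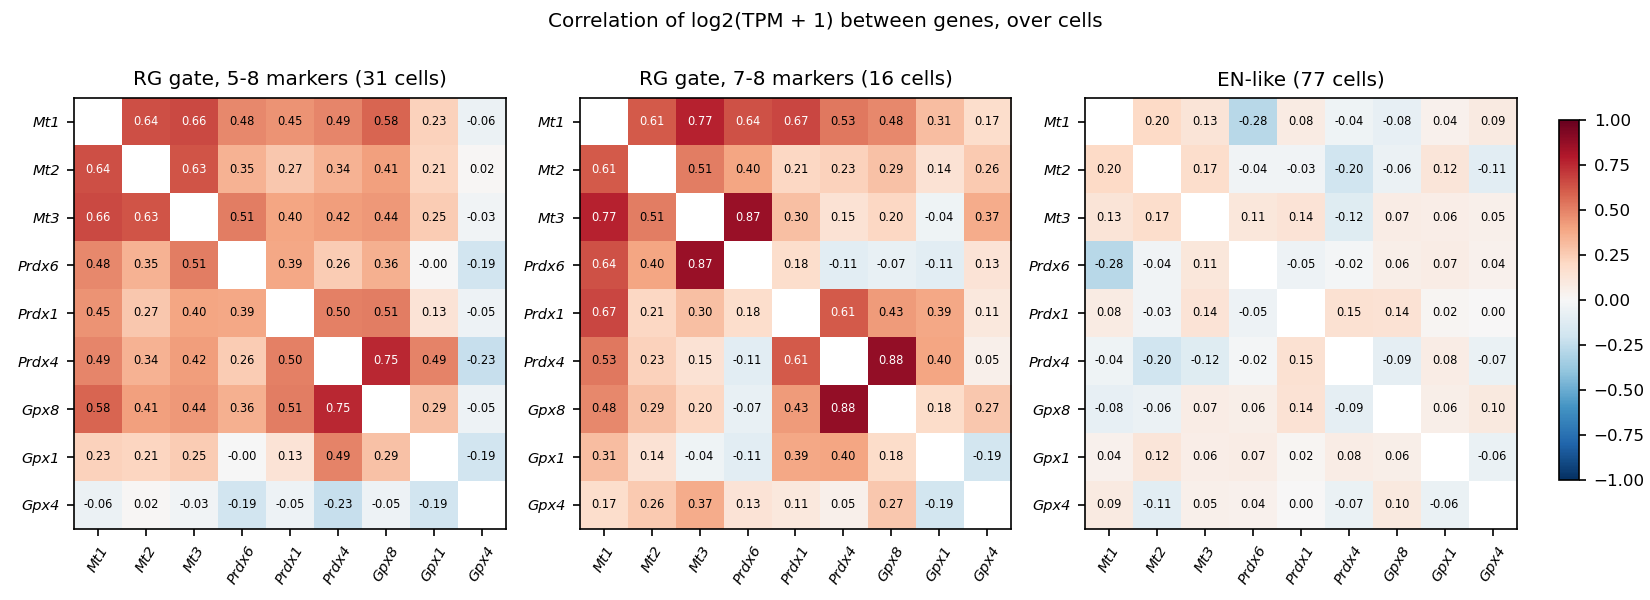
Pearson r of log2(TPM + 1) between the 9 genes over the cells of the whole gate, of the radial glia-like cells and of the excitatory neuron-like (EN-like) cells. Positive values fill the block of 7 genes in the whole gate. In the radial glia-like cells the highest values are Gpx8 with Prdx4 (0.88) and Mt3 with Prdx6 (0.87), with Mt1 joined to both pairs (0.53 with Prdx4 and 0.64 with Prdx6), and the EN-like values lie between -0.28 and 0.20.

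The genes with the most similar pattern were looked up for Mt1, Mt3, Gpx8 and Prdx6. Over the 31 gated cells and 3518 genes, the nearest to Mt1 were Phgdh, an enzyme of serine synthesis (r = 0.81), Mlc1, an astrocyte membrane protein (0.81), and Hopx, the homeodomain protein in the study's title (0.79). The nearest to Mt3 were Hopx (0.84), Lyrm4, of iron-sulphur cluster assembly (0.83), and Wdr34, a dynein subunit (0.80). For Gpx8 they were Gcsh, of glycine cleavage (0.81), Zfp36l1, an RNA-binding protein (0.77), and Ednrb, an endothelin receptor (0.76). For Prdx6 they were Hmgcs1, of sterol synthesis (0.75), Aldoc, an aldolase of astrocytes (0.67), and Phgdh (0.67). Over the 16 radial glia-like cells and 4259 genes, Phgdh was again the nearest to Mt1 (0.97) and Hopx was among the nearest to Mt3 (0.90, after Sept11 and Aldoc, both 0.92). For Gpx8 (Litaf 0.89, Pde6d 0.85 and Wdr74 0.83) and Prdx6 (4833439L19Rik 0.93, Ctsb 0.92 and Klhdc3 0.92) none of the 3 nearest genes was the same as over the whole gate. Over all 221 cells and 10745 genes the values were lower. They were 0.53 for Mt1 and S1pr1, 0.50 for Mt3 and S1pr1, 0.69 for Gpx8 and Zfp36l1, and 0.32 for Prdx6 and Ndufaf4, the nearest gene in each case.

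Markers of some other cell types were also higher in radial glia-like cells than in excitatory neuron-like cells. The summed level of the astrocyte list above the floor (5 of 6 markers in the table) had a median of 1535 TPM in radial glia-like cells (179 to 7780) and 0 in excitatory neuron-like cells (up to 408), and S100b was at the floor in both. Aldoc, an aldolase of astrocytes, was detected in 15 of 16 cells (median 1409 TPM), and Gfap was detected in 7 of 16 cells. The oligodendrocyte precursor list (5 of 5) had a median of 32.4 TPM (0 to 2222) against 0 (up to 339.98), with Sox10 at the floor in both. Their part in the result was not tested. Without gated cells with an oligodendrocyte precursor marker at 100 TPM or more, the Mt3 difference of the whole gate was 3.22, that of Mt1 2.71 and that of Gpx8 2.52. With all gated cells these differences were 3.81, 3.50 and 3.08. The endothelial and mural lists were at the floor in all 16 radial glia-like cells, and the microglial list reached at most 18.3 TPM. Red blood cell markers (4 of 6) were not absent. They gave signal in 5 of the 16 radial glia-like cells, with a largest sum of 4511 TPM. Such signal was also found in 29 of the 77 excitatory neuron-like cells, with a largest sum of 3901 TPM. The median sum was 0 in both classes. The part of these markers alone in the levels of the 9 genes was not tested. With suffix A cells alone the differences of the whole gate were 3.31 for Mt3, 3.34 for Mt1 and 2.80 for Gpx8. Cycle genes were higher in radial glia-like cells too, with a summed median of 1096 TPM against 127 TPM. Their r with the 9 genes over the 16 cells lay between -0.28 and 0.21.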

How the data were processed

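TPM values of 221 cells were deposited by the authors. The submitters' processing notes name TopHat2 2.0.14, Bowtie2 2.2.6, Cufflinks 2.2.1 and mm10, and the steps from reads to TPM are not given in the sources used here. The values of each cell sum to 1000000 and none is below the floor of the cell. The genes, markers and lists were chosen with earlier results of these data known.

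Values were taken as log2(TPM + 1) and averaged over the cells of a class in a pool (at least 3 cells). The 4 classes in 2 pools gave 8 profiles. They were fitted with limma 3.58.1 in R 4.3.3 (lmFit and eBayes with trend and robust variances), two-sided, with Benjamini-Hochberg adjustment over 10724 genes that were detected in at least 10 cells and were not gate markers. A call needed an adjusted p under 0.05 and a log2 difference of at least 1. Cells are not replicates, and the pools were separate suspensions. The numbers of the pools pair the classes because their cells come from the same animals. The correlation of pool deviations between classes was between -0.01 and 0.03 over genes, and the pool was left out of the main model. The script was tested on simulated data. No caller of doublets was run. In 19 cells both Xist and a Y-linked transcript were above the floor.

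Named genes were the 9 members, list genes called in the comparison with the whole gate (none) or highest by mean TPM (2 per list), and the 3 nearest genes to Mt1, Mt3, Gpx8 and Prdx6. Protein sequences were not used here. Alternatives changed the pseudocount, the filter, the averaging, the normalization, the gates and the cells kept.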

Additional observations from a re-analysis of the deposited data

Results flagged for a closer look

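Within groups of 4 to 10 cells, 11 values stood apart from the others of their group by Dixon's criterion on the log2 scale, among 45 groups of cells and genes examined, where chance gives about 1 in 20 for values without ties. In groups mostly at the shared floor a single detected cell meets the criterion, so that rate does not apply to them and the number is not read as an excess. High single cells were Mt1 at 209.6 TPM and Gpx8 at 305.4 TPM among 9 interneuron-like cells of pool 2. Among the 10 gated cells with 5 radial glia markers they were Mt2 at 45.3 TPM and Gpx8 at 126.4 TPM, and among the 5 cells with 6 markers Mt2 at 99.1 TPM and Gpx8 at 822.0 TPM. Low single cells were Gpx4 at 2.12 TPM among the same interneuron-like cells and Mt1 at 1.75 TPM among the 9 cells with 8 markers. Among the 7 cells with 7 markers, Prdx1 at 30.3 TPM, Prdx4 at 1.99 TPM and Prdx6 at 2.05 TPM stood below the rest.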

How the results depend on the processing

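The direction of Mt1, Mt2, Mt3, Gpx8, Prdx1, Prdx4 and Prdx6 between the gate and excitatory neuron-like cells was the same in all 20 settings run, whereas the number of genes called was not stable. The genes were selected on glia-neuron levels in these same cells, so their shared direction is no independent support. Counts of called genes are from limma. Against 35 called between the gate and excitatory neuron-like cells, the count was 0 with no filter on low values, with a gate of 4 markers, with up to 4 radial glia markers in neurons, with suffix A cells only and without cells holding oligodendrocyte precursor markers (1183, 534, 1008, 556 and 866 with an unadjusted p under 0.05). It was 76 with pool and suffix as units, 158 with weighted profiles, 341 with a gate of 6 markers, 552 with 7, 313 with markers at 20 TPM or more, 444 without gated cells with Neurod6 at 100 TPM or more, 15 without cells with both Xist and Y-linked transcripts, 20 without Eomes-positive cells with 5 or more radial glia markers and 5 without cells of other types. Against 95 between the neuron classes, the count was 49 on the log2 of the mean TPM, 53 with markers at 20 TPM and 3 with suffix A only. It was also 8 without gated cells with Neurod6 at 100 TPM or more, 52 with a gate of 7 and 59 without Eomes-positive cells with 5 or more radial glia markers, although only the gate of 7 can change a neuron class. Against 2 for Eomes-positive cells, it was 13 on the log2 of the mean, 98 weighted, 5 with markers at 20 TPM, and 0 with no filter, with pool and suffix as units, with quantile normalization, with a gate of 4, with up to 4 markers in neurons, with suffix A only and without Eomes-positive cells with 5 or more radial glia markers (1071, 604, 935, 1101, 892, 824 and 797 with an unadjusted p under 0.05). It was 0 too without gated cells with Neurod6 at 100 TPM or more, with a gate of 7 and without cells holding oligodendrocyte precursor markers (462, 722 and 911). With the pool as a replicate block it was 0 for the gate (1083) and 0 for Eomes-positive cells (1021), and the block changed no member's call against excitatory neuron-like cells in interneuron-like or Eomes-positive cells. The gate of 7, suffix A only and the removals of cells with other-type, oligodendrocyte precursor or radial glia markers were chosen after seeing the data. The cause of these changes was not tested.

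Values that changed sign passed the test under neither setting. Prdx2 between the gate and excitatory neuron-like cells was 0.15 after quantile normalization. Between the neuron classes, Mt1 was 0.47 with pool and suffix as units, 0.21 with markers at 20 TPM, 1.73 with suffix A only and 0.32 without other cell types. Mt3 was -0.0489 with pool and suffix as units, -0.10 when weighted, -0.43 with up to 4 markers in neurons and -0.67 with suffix A only. Gpx4 was -0.16 with a gate of 4 and -0.44 with suffix A only. Prdx1 was 0.32 on the log2 of the mean, 0.17 with suffix A only and 0.10 without other cell types, and Prdx6 was 0.14 with a gate of 4 and 1.60 with suffix A only. For Eomes-positive cells, Mt2 was -0.32 and Gpx4 -0.0115 without cells with 5 or more radial glia markers, and Gpx4 was -0.0783 after quantile normalization. The 16 list genes named for their level changed sign in 50 of 288 alternative values. Without read counts, a gene at the floor cannot be told from one missed in that cell, and 2 pools limit every test.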

Other observations

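The 55 cells that met no class are described here by their values. Mt3 was detected in 32 of them, with a median of 36.97 TPM and a highest value of 1196 TPM. Mt1 was detected in 19 (median 1.90, highest 1048 TPM) and Mt2 in 8 (median 1.86, highest 1048 TPM). Gpx8 was detected in 10 and Prdx4 in 26. Gpx1 and Gpx4 were detected in 49 and 53 of the 55, with medians of 310.3 and 219.7 TPM. Apart from the cells with 4 radial glia markers set beside the edge of the gate, they entered no comparison between the main classes. Some of them joined a class under alternative gates, and all count in the medians by marker number and the correlations over all cells.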
